A study of Mus musculus with 15 samples.

Results

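Flavin monooxygenases and epoxide hydrolases are enzymes of xenobiotic metabolism, and the transcripts of 6 of them were followed in mouse lung: Fmo1, Fmo2, Fmo4, Fmo5, Ephx1 and Ephx2. Their members were found as all probes whose RefSeq accession maps to one of the 6 symbols, which gave 10 of the 56605 probes on the array. Fmo1 had 3 probes, Fmo2 and Fmo5 had 2 each, and Fmo4, Ephx1 and Ephx2 had 1 each. Of these probes 9 were well above background on all 3 arrays of at least 1 diet, so 5 of the 6 genes could be tested, and Fmo4 could not. RNA came from the whole lungs of 15 female mice of the outbred stock Crlj:CD1(ICR), aged 11 weeks, which ate a powdered diet with 0 (control), 20, 500, 2500 or 5000 ppm permethrin for 7 days, with 3 mice on each diet. The labels name no transgene and no second treatment. Each array held the Cy3-labelled RNA of 1 mouse, and the labels call the 3 mice of a diet biological replicates. Permethrin is a pyrethroid insecticide.

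Flavin monooxygenases sit in the membrane of the endoplasmic reticulum and use NADPH and oxygen to oxidise soft nucleophiles such as the nitrogen or sulfur of amines, thioethers and thioureas. FMO2 is known as the main form of mammalian lung, while FMO1 and FMO5 are best known from liver, kidney and gut. Epoxide hydrolases add water to epoxides, which cytochrome P450 enzymes form from drugs, aromatic pollutants and fatty acids. Microsomal epoxide hydrolase, encoded by Ephx1, turns reactive epoxides of xenobiotics into diols, is abundant in club cells of the airway, and is known as a gene that the transcription factor Nrf2 can induce. Soluble epoxide hydrolase, encoded by Ephx2, mainly hydrolyses epoxides of arachidonic and other fatty acids, and is well expressed in liver, kidney and adipose tissue.

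Promoters of 3 of these genes are shown so that Ephx1 and Fmo5 can be set beside Fmo2, the form known from lung. For Ephx1 and for the brighter Fmo5 probe, all mice at 5000 ppm lay above the controls, as was so for 12.9% of genes. The second Fmo5 probe overlapped with controls. RefSeq promoter windows (250 bases before the annotated start to 50 after it, build GRCm38.p6) were at hand for 4 of the 6 genes, Ephx1, Fmo2, Fmo4 and Fmo5. The window of Ephx1 is chr1:181017520-181017819 on the minus strand, that of Fmo5 is chr3:97628769-97629068 on the plus strand, and that of Fmo2, at 1 of its annotated starts, is chr1:162898709-162899008 on the minus strand. Each is written 5′ to 3′, with GC boxes (GGGCGG on either strand) in capitals.
Ephx1: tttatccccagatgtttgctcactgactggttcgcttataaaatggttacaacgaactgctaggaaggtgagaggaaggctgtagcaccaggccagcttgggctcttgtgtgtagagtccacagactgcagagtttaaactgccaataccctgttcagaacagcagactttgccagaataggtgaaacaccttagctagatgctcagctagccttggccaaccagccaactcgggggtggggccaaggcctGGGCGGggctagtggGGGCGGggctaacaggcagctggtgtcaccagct
Fmo5: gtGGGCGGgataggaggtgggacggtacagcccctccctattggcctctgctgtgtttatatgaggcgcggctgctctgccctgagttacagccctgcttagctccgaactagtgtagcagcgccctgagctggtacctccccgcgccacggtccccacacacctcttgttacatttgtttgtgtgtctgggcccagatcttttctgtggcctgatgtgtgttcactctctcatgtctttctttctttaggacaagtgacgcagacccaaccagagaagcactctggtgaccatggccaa
Fmo2: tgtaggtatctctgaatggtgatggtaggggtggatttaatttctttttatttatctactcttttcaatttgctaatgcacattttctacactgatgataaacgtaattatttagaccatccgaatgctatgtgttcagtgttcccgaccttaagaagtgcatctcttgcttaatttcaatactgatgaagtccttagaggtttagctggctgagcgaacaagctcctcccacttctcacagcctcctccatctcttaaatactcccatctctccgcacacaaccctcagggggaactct
The Ephx1 window held 2 GC boxes close to the start and had a GC content of 54.3%, the Fmo5 window held 1 at its far end (GC content 56.0%), and the Fmo2 window held none (GC content 41.3%), where the median over all windows was 52.7%. A GC box stood in 35.7% of 32851 RefSeq promoter windows of the same length. The core of the antioxidant response element (TGACNNNGC), which Nrf2 binds, and that of the xenobiotic response element (GCGTG), which the aryl hydrocarbon receptor binds, were found on neither strand of the windows of these 4 genes. These cores stood in 12.4% and 32.4% of all windows, no matches in the printed windows overlapped, and a missing core says only that these letters are not in these windows. In the annotation, Fmo4, Fmo1, Fmo2 and Fmo6 follow one another on chromosome 1 with no other protein-coding gene between them. Fmo5 lies alone on chromosome 3, between Chd1l and Prkab2, while Ephx1 lies on chromosome 1 and Ephx2 on chromosome 14.

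All levels below are log2 signals on a scale where 0 is the 75th percentile of the array. They compare mice for 1 probe and do not rank one gene against another. The arrays lay on 2 slides, with the control and 20 ppm arrays and 500 ppm mice 1 and 2 on slide 1, and 500 ppm mouse 3 and the 2500 and 5000 ppm arrays on slide 2, so that slide and diet are tied together except through 500 ppm mouse 3. In a principal component analysis 4 arrays stood apart, 500 ppm mouse 3 and 2500 ppm mouse 3 on the first component (36.3% of variance) and control mouse 1 and 20 ppm mouse 1 on the second (17.9%). The scanner files gave 500 ppm mouse 3 and 2500 ppm mouse 3 an extraction status of 1, and all other arrays 0. On the array of 2500 ppm mouse 3, 274 spots were flagged as outliers, against 104 to 145 on the others. From 70.7% to 87.0% of probes were well above background on an array, no spot was saturated, and markers of lung cells (9 of 9 for club cells, 8 of 8 for alveolar type 2 cells, 7 of 7 for alveolar type 1 cells) were well above background on all 15 arrays. So were 8 of 8 markers of hepatocytes and 8 of 8 of cardiac muscle, so that being well above background does not by itself single out lung. In whole-lung RNA, more cells of a type and more RNA per cell cannot be told apart.

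None of the 5 tested genes passed an adjusted p of 0.05 (limma, Benjamini-Hochberg over 34401 genes) at any dose, between 5000 and 2500 ppm, or on the trend over the 5 dose ranks. The background was low: at 5000 ppm 0.0407% of all genes passed (14 genes), on the trend 0.142% (49 genes), and at 2500, 500 and 20 ppm and for 5000 against 2500 ppm 0% passed in limma, with an unadjusted p under 0.05 for 2923, 977, 507 and 1732 genes. With 3 mice a diet, the 95% intervals still leave room for moderate changes, and they differ greatly between the genes. At 5000 ppm the interval of the fold change ran from 0.753 to 1.24 for Fmo1, from 0.83 to 1.44 for Fmo2, from 0.948 to 1.86 for Fmo5, from 1.43 to 2.60 for Ephx1 and from 0.675 to 3.61 for Ephx2. Only for Ephx1, at 5000 ppm, did the unadjusted interval leave out no change among the 4 doses. The median change over all genes was 0.07 at 5000 ppm and 0.12 at 500 ppm (log2).

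**Figure D1:**
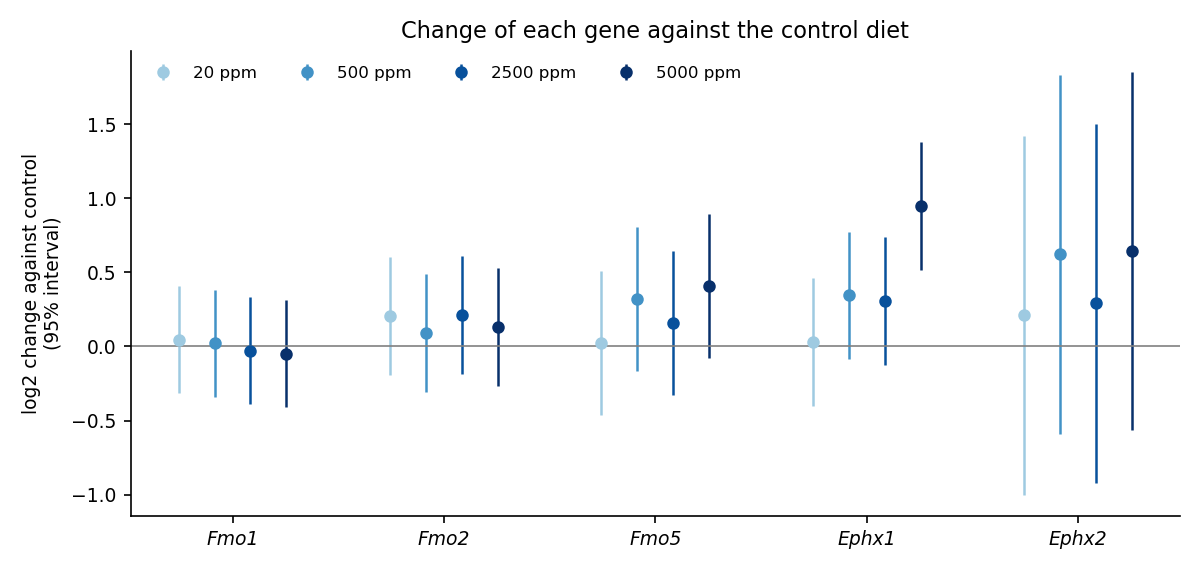
Log2 change against the control diet (y axis) for the 5 tested genes (x axis) at 20, 500, 2500 and 5000 ppm. Points are the difference of the means of 3 mice each, and bars are unadjusted 95% intervals from limma; the Ephx1 point at 5000 ppm (0.95) is the highest, and the bars of Ephx2 are the widest.

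Ephx1 had the clearest relation to dose. The 3 control mice had levels of 5.44, 5.67 and 5.62, and the mice at 20 ppm had 5.27, 5.72 and 5.84. At 500 ppm the levels were 5.99, 5.92 and 5.85, and at 2500 ppm they were 6.13, 6.04 and 5.49. At 5000 ppm they were 6.37, 6.46 and 6.76, so that the 3 mice of the highest diet lay above all 12 others, a pattern that 1.44% of all genes shared. All 3 mice lay above all 3 controls at 5000 ppm, as was so for 12.9% of genes, and also at 500 ppm, as was so for 4.53%. The 20 ppm levels spanned those of the controls, and at 2500 ppm 2 mice lay above the controls while mouse 3, one of the arrays that stood apart, lay among them.

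The mean of Ephx1 was 5.58 ± 0.12 (SD, n = 3) in controls and 6.53 ± 0.20 (n = 3) at 5000 ppm, a difference of 0.95 ± 0.20 SE on the log2 scale, or 1.93-fold. It ranked number 57 by p among all genes of that comparison but did not pass (limma, adjusted p = 0.240). The differences at 2500 ppm (0.31), 500 ppm (0.34) and 20 ppm (0.03) each had a SE of 0.20 and adjusted p of 0.763, 0.941 and 1. These smaller differences were not stable in size: at 2500 ppm it was 0.50 without 2500 ppm mouse 3, 0.19 without 2500 ppm mouse 1 and 0.12 with normexp background correction, and at 500 ppm 0.11 with the array median as the scale. Between 5000 and 2500 ppm the difference was 0.64 ± 0.20 (limma, adjusted p = 0.784), on arrays of the same slide. Per step of dose rank the level was 0.22 ± 0.04 higher (limma, adjusted p = 0.0987). In order of their means the diets ran control, 20, 2500, 500 and 5000 ppm, and every pair of neighbours overlapped except 500 and 5000 ppm.

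Ephx1 passed in some of the fits that gave the arrays that stood apart less weight or left them out. More of all genes also passed with array weights, at 5000 ppm and on the trend. The same was so on the trend without both arrays apart on the first component and without all 4. Those counts are given in the last section, and the main fit had 14 genes (0.0407%) at 5000 ppm and 49 (0.142%) on the trend. With array weights, which gave these 4 arrays the 4 lowest weights (0.140 to 0.248), the difference at 5000 ppm was 0.88 (limma, adjusted p = 0.0143) and the trend 0.21 (adjusted p = 0.00424). The trend also passed without 2500 ppm mouse 3 (0.24, adjusted p = 0.0396), without both arrays apart on the first component (0.24, adjusted p = 0.0306) and without all 4 (0.21, adjusted p = 0.0435). Leaving out 1 array at a time let 14 to 81 of all genes pass on the trend. At 5000 ppm without all 4 the difference was 0.88 with an adjusted p of 0.101. Over the fits that left out 1 array each, it ran from 0.83 to 1.03 with adjusted p from 0.120 to 0.809 (limma). With slide as a fixed block, where 4940 genes passed, it was 1.05 ± 0.37 (adjusted p = 0.0804), and with slide as a random block 0.98 ± 0.26 (adjusted p = 0.890). Within slide 1 the 2 mice at 500 ppm were 0.38 ± 0.22 above the controls (limma, adjusted p = 0.994).

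**Figure D2:**
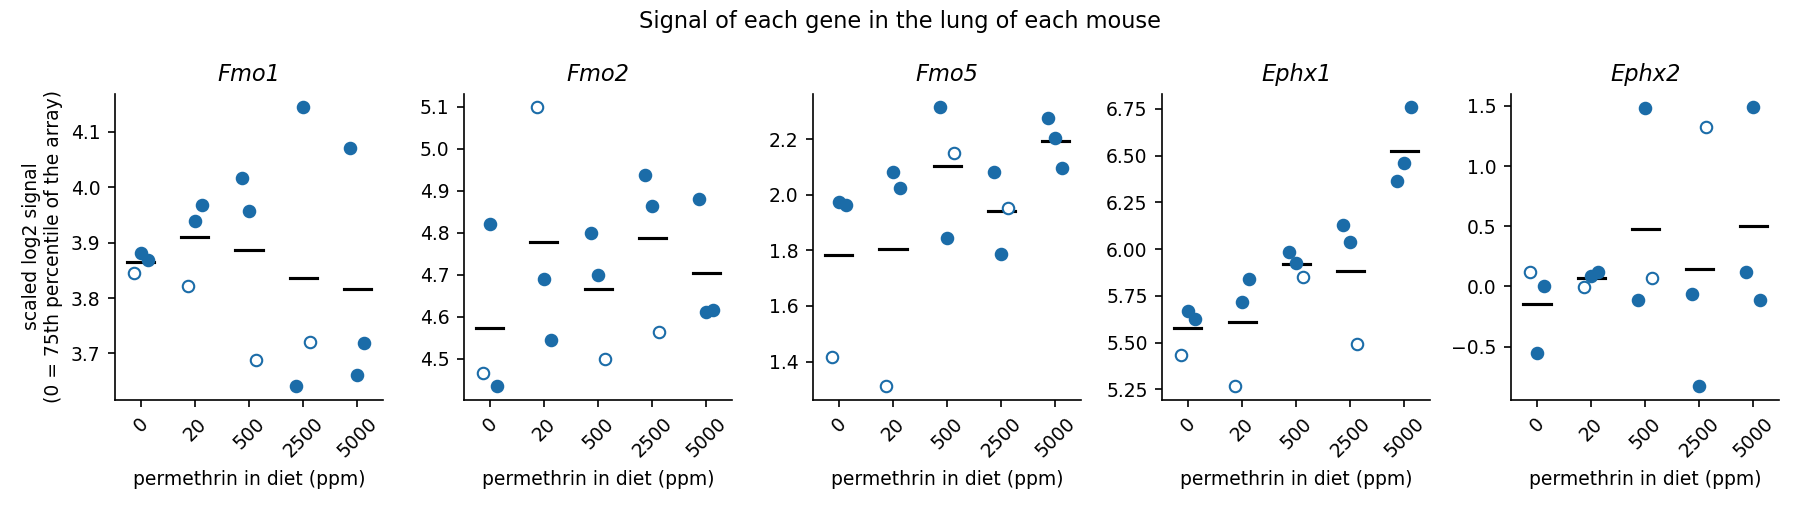
Scaled log2 signal (y axis, with a range of its own in each panel) of Fmo1, Fmo2, Fmo5, Ephx1 and Ephx2 in each mouse, by permethrin in the diet in ppm (x axis). Each circle is 1 mouse, open circles are the 4 arrays that stood apart, and black lines are means of 3; Ephx1 at 5000 ppm lies above every other mouse, and 3 mice of 3 diets stand high for Ephx2.

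Ephx1 was set beside markers of club cells, in which the enzyme is abundant. The summed signal of 9 club cell markers, relative to each array's 75th percentile, ran from 2373 to 2755 in controls and from 3173 to 3592 at 5000 ppm, and these did not overlap. This was not particular to club cells. Sums of alveolar type 2 cell markers (1160 to 1240 against 1286 to 1314) and of fibroblast markers (341 to 390 against 417 to 426) were also separate. Those of some other lists, such as endothelial cell markers, overlapped. At 5000 ppm 8 of the 9 club cell markers were above control and none passed, with a median difference of 0.31 against 0.07 for all genes. The highest club cell sum of all arrays, 4635, was that of 2500 ppm mouse 3, which had the lowest Ephx1 level of its diet. With the log2 sum as a covariate, the Ephx1 difference at 5000 ppm was 0.98 ± 0.23 (limma, adjusted p = 0.311), but the sum is itself tied to diet. Sums of 8 ciliated cell markers ran from 113 to 164 in controls and from 151 to 226 at 5000 ppm. The part of club or ciliated cell RNA in the Ephx1 difference was not tested.

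Ephx2 varied most among the 5 genes from mouse to mouse. Levels were 0.12, -0.55 and 0.0021 in controls, -0.0034, 0.09 and 0.12 at 20 ppm, and -0.12, 1.48 and 0.07 at 500 ppm. They were -0.06, -0.83 and 1.33 at 2500 ppm and 0.12, 1.49 and -0.11 at 5000 ppm. A single mouse stood high in each of the 3 upper diets, while the other 12 mice lay between -0.83 and 0.12. The SD within diets was 0.75, larger than that of 89.1% of genes, against 0.18 to 0.27 for the other 4 genes.

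The differences of Ephx2 from control were 0.64 ± 0.56 at 5000 ppm (limma, adjusted p = 0.968), 0.29 at 2500 ppm, 0.62 at 500 ppm and 0.21 at 20 ppm, with the same SE and adjusted p from 0.941 to 1. The 3 mice with high Ephx2 were the 3 with the highest sums of 8 adipocyte markers, which include the adipokine genes Adipoq and Retn and the lipid droplet gene Plin1. These sums were 129 in 5000 ppm mouse 2, 151 in 500 ppm mouse 2 and 74.7 in 2500 ppm mouse 3, against 4.36 to 24.0 in the other 12. Without Cfd, the marker with the largest share, they were 37.6, 40.1 and 32.7 against 3.84 to 12.2. Of the markers 6 were well above background on all 15 arrays and none was below it on every array. Plin1 was well above it on 10 arrays and Adipoq on 14. Lep, another adipokine gene of the list, varied little, with levels from -0.89 to -0.50 over all 15 arrays. The sums therefore do not show that every marker was high in the 3 mice with high Ephx2. Leaving out 5000 ppm mouse 2 alone gave a difference of 0.15 at 5000 ppm, a drop that its high Ephx2 level fixes, whatever its markers. With the log2 adipocyte sum as a covariate, added after the values were seen, the SE at 5000 ppm fell from 0.56 to 0.25 and the difference was 0.60 (limma, adjusted p = 0.933). Over the other alternatives the difference at 5000 ppm ran from 0.0044, with the club cell sum as a covariate, to 1.25, with slide as a fixed block.

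The sum of 8 hepatocyte markers was 36.8, 9.10 and 47.8 in the 3 mice with high Ephx2 and 14.7 to 90.9 in the other 12. The part of adipocyte or liver RNA in the Ephx2 levels was not tested. The diets in order of their Ephx2 means were control, 20, 2500, 500 and 5000 ppm, and all neighbours overlapped.

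**Figure D3:**
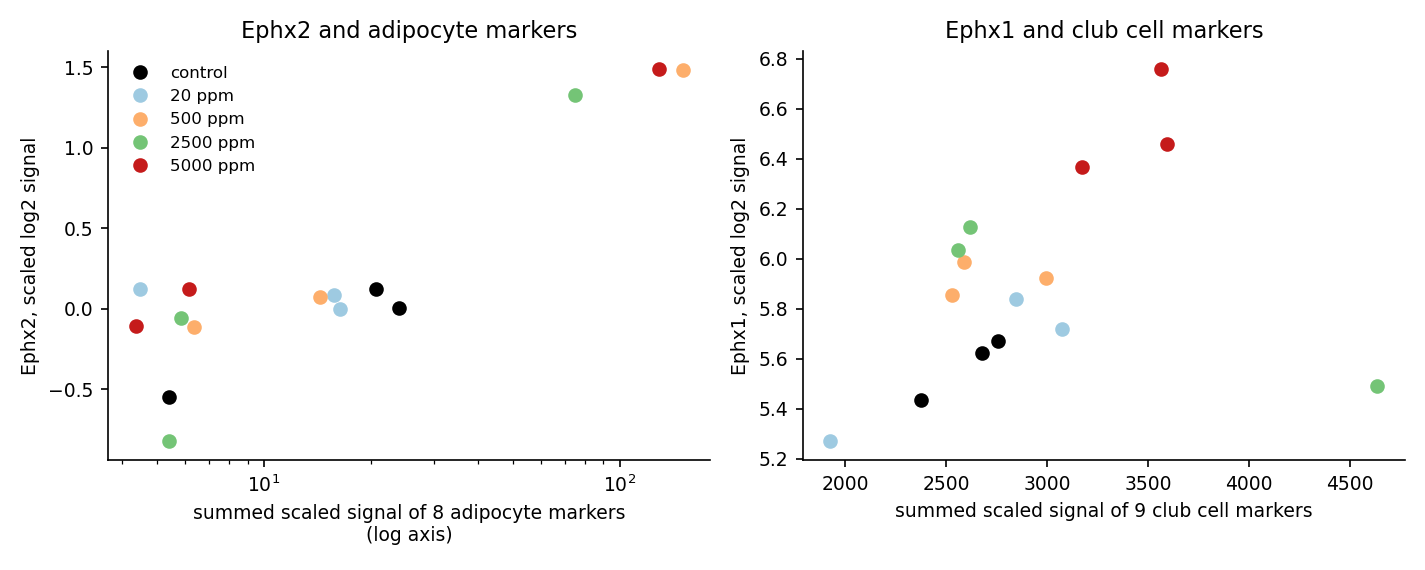
Left, Ephx2 level (scaled log2) against the summed scaled signal of 8 adipocyte markers on a log axis; right, Ephx1 level against the summed scaled signal of 9 club cell markers. Each point is 1 mouse, coloured by diet. The 3 mice with Ephx2 above 1 are the 3 with adipocyte sums of 74.7 or more. The array with the highest club cell sum (4635), that of 2500 ppm mouse 3, is among those that stood apart and has a low Ephx1 level.

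Fmo1 showed almost no spread among controls and no direction with dose. Its brightest probe read 3.85, 3.88 and 3.87 in controls and 4.07, 3.66 and 3.72 at 5000 ppm. Mice at 20 ppm had 3.82, 3.94 and 3.97, at 500 ppm 4.02, 3.96 and 3.69, and at 2500 ppm 3.64, 4.14 and 3.72. The diets overlapped throughout, and the means ran only from 3.82 at 5000 ppm to 3.91 at 20 ppm. The difference at 5000 ppm was -0.05 ± 0.17 (limma, adjusted p = 0.981), and the SD within diets was 0.18, a value that 14.1% of genes lay below. The 2 other probes, annotated to another RefSeq transcript of the gene, gave 0.17 ± 0.21 and 0.19 ± 0.15. For the last of these, A_55_P2783152, levels at 5000 ppm (0.39, 0.50 and 0.50) lay narrowly above those of controls (0.38, 0.21 and 0.25). All 3 mice lay above the controls for 12.9% of genes, and for none of the other Fmo1 probes. The sign of the Fmo1 difference at 20, 2500 and 5000 ppm depended on the probe. At 20 ppm it was 0.04 for the brightest probe, 0.08 for the second and -0.09 for A_55_P2783152. None of the 3 probes passed at any dose (limma, adjusted over 43154 probes, of which 0.0324% passed at 5000 ppm).

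Fmo2, the form known from lung, likewise passed at no dose and showed no steady order with dose. Controls read 4.46, 4.82 and 4.44, and the mice at 5000 ppm read 4.88, 4.61 and 4.62. At 20 ppm the levels were 5.10, 4.69 and 4.55, at 500 ppm 4.80, 4.70 and 4.50, and at 2500 ppm 4.94, 4.86 and 4.56. The highest level was that of 20 ppm mouse 1, one of the arrays that stood apart, and no diet was separate from control. The differences from control were 0.13 ± 0.18 at 5000 ppm (1.09-fold, limma, adjusted p = 0.970), 0.22 at 2500 ppm, 0.09 at 500 ppm and 0.20 at 20 ppm. Without control mouse 1 and 20 ppm mouse 1 the difference at 20 ppm was -0.01. The second, dimmer probe gave -0.02 ± 0.20 at 5000 ppm and 0.15 ± 0.20 at 2500 ppm.

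By its brighter probe, Fmo5 was higher at 5000 ppm than in controls without passing the test, and the result depended on the probe. That probe read 1.42, 1.97 and 1.96 in controls, and 2.28, 2.21 and 2.10 at 5000 ppm, where all 3 mice lay above all 3 controls. Ephx1 and Fmo5 were thus 2 of the 5 tested genes with this pattern, which 12.9% of all genes had. Levels were 1.31, 2.08 and 2.02 at 20 ppm, 2.32, 1.85 and 2.15 at 500 ppm, and 2.08, 1.79 and 1.95 at 2500 ppm. The difference at 5000 ppm was 0.41 ± 0.22, or 1.33-fold (limma, adjusted p = 0.963), and the trend was 0.10 ± 0.05 per dose rank (adjusted p = 0.586). The lowest levels belonged to control mouse 1 and 20 ppm mouse 1, and without control mouse 1 the difference at 5000 ppm was 0.23. With the mean of a gene's probes it was 0.07, below that of Fmo1 (0.10). The second probe, A_52_P1147453, was dim, being well above background on 12 of 15 arrays, 1 of them at 2500 ppm and 2 at 5000 ppm. It gave -0.27 ± 0.40 at 5000 ppm and -0.70 ± 0.40 at 2500 ppm (limma, adjusted p = 0.979 and 0.746), opposite in sign to the brighter probe.

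**Figure D4:**
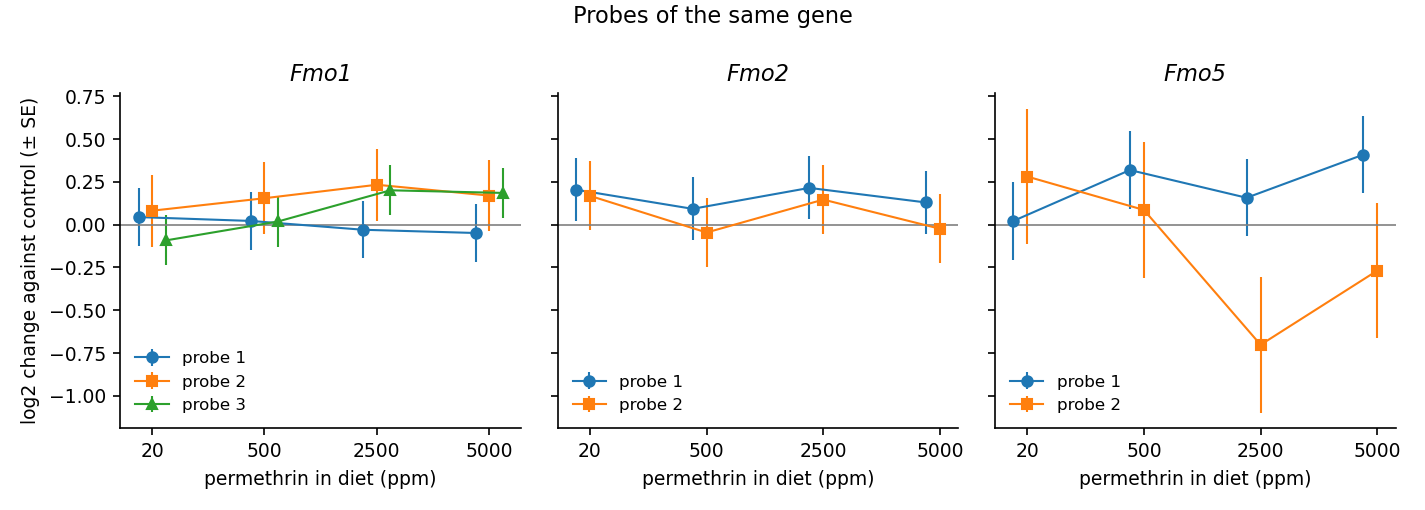
Log2 change against control (y axis) for each kept probe of Fmo1, Fmo2 and Fmo5, by permethrin in the diet in ppm (x axis, doses evenly spaced). Points are differences of means of 3 mice and bars are standard errors, with probe 1 the brightest of its gene; the error bars of the Fmo1 probes and of the Fmo2 probes overlap, and those of the Fmo5 probes are apart at 2500 ppm (0.16 against -0.70) and at 5000 ppm (0.41 against -0.27).

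Fmo4 had no usable level. Its probe was well above background on 1 of 15 arrays, that of 2500 ppm mouse 3, and not on the other 14, and its processed signal ran from 2.36 to 21.8 over all arrays. No fold is given for it.

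The members did not move as 1 group from mouse to mouse. Over the 15 arrays the highest correlation among the 10 pairs was that of Ephx1 with Fmo5 (r = 0.66), and it was 0.42 over the 11 arrays without those that stood apart. Ephx1 and Ephx2, the 2 hydrolases, had r = 0.05, and the neighbours Fmo1 and Fmo2 had r = 0.24. These values share the diets and the array scaling, and are given as descriptions.

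Each gene had its own company of genes with the most similar levels over the 15 arrays. For Ephx1 these were Cldn10 (r = 0.95), a claudin that is also among the club cell markers, Gclc (r = 0.91), the catalytic subunit of the enzyme that starts glutathione synthesis, and Cetn2 (r = 0.91), a centrin. Over 11 arrays Ilkap (r = 0.98), Gstm3 (0.98) and Gstm1 (0.97) came first for Ephx1, the last 2 being mu class glutathione transferases. For Ephx2 they were Sfrp5 (r = 0.96), a secreted Wnt antagonist known from adipose tissue, and Car3 (0.94), a carbonic anhydrase abundant in adipocytes and muscle. Over 11 arrays Sfrp5 again came first (r = 0.98). For Fmo5 they were Mcrs1 (r = 0.95), Ppard (0.94), a fatty acid receptor, and Vps52 (0.94), which had r = 0.80, 0.82 and 0.82 over 11 arrays. For Fmo2 they were Maml3, a Notch coactivator (r = 0.87), and Nedd4, a ubiquitin ligase (0.86). For Fmo1 they were Pole2, a subunit of DNA polymerase epsilon (r = 0.82), Arhgap15 (0.75) and Nmral1 (0.72).

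Among other epoxide hydrolases, Ephx3 and Ephx4 were bright enough to test, and neither passed. Their differences at 5000 ppm were 0.04 ± 0.23 and 0.13 ± 0.26. Fmo6 and Fmo9 were on the array but were not kept. Upstream of the hydrolases, 18 P450 enzymes that can form epoxides had a median difference of 0.19 at 5000 ppm, 12 were above 0 and none passed. The smallest p values among them belonged to Cyp2s1, a P450 of epithelia (0.36 ± 0.15), and Cyp1a1, a target of the aryl hydrocarbon receptor (-1.03 ± 0.42), both with an adjusted p of 0.930 (limma). Of the 7 genes listed as electron transfer or binding partners of P450 enzymes, all 7 were above 0 and none passed, with a median of 0.27. Cyb5a, cytochrome b5, was at 0.55 ± 0.16 (limma, adjusted p = 0.673) and Pgrmc1 at 0.44 ± 0.14 (adjusted p = 0.805).

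The enzymes that conjugate or reduce, known as Nrf2-induced, were where genes passed. Of 17 tested, 5 rose at 5000 ppm, 12 did not pass and none fell, and the median was 0.98 against 0.07 for all genes. Those that rose were Gsta2, an alpha class glutathione transferase (2.56 ± 0.21, adjusted p = 0.000315), Nqo1, a quinone reductase (2.22 ± 0.21, adjusted p = 0.000971), Srxn1, a sulfiredoxin (1.61), Cbr3, a carbonyl reductase (1.55), and Txnrd1, a thioredoxin reductase (1.29), all by limma. On the trend 9 of the 17 rose, Gclc among them (0.34 ± 0.05 per dose rank, adjusted p = 0.0259). The difference of Ephx1, 0.95, would take place 11 among these 17 and itself, between Gstm3 (0.95 ± 0.20, adjusted p = 0.269) and Mgst1 (0.61 ± 0.15, adjusted p = 0.499). Earlier results of these samples had already shown this list to be high, so its count is no independent evidence. Of 9 regulators none passed at 5000 ppm, with a median of 0.18, and Ppara, the fatty acid sensing receptor known to regulate Ephx2 in liver, was at 0.42 ± 0.21 and Keap1, the inhibitor of Nrf2, at 0.25 ± 0.15 (limma, adjusted p = 0.963 and 0.966).

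**Figure D5:**
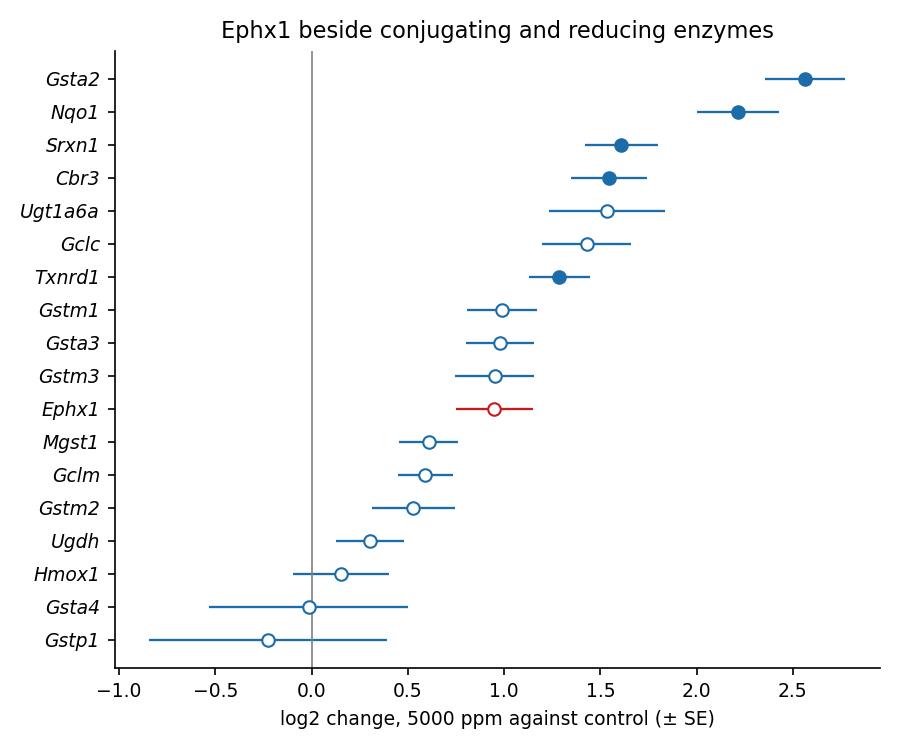
Log2 change at 5000 ppm against control (x axis) of Ephx1 (red) and of 17 conjugating or reducing enzymes (blue), ordered by size. Points are differences of means of 3 mice, bars are standard errors and filled points passed an adjusted p of 0.05; Ephx1 takes place 11 of 18, and 5 enzymes passed.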

How the data were processed

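Scanner software was Agilent Feature Extraction 10.7.3.1, per the file headers. In the deposited files its processed signal, from which background is already subtracted, is an intensity on a linear scale. The table that the authors deposited is in log2 and tracks the log2 processed signal exactly (correlation 1), apart from a constant for each array. Probe coordinates belong to mm9, per the file headers of slide 1, and are not printed.

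For the values given here, control spots were dropped, as were outlier-flagged spots wherever the probe had another spot, the spots of each probe were averaged, and the 75th percentile of each array's log2 signals was set to 0. Kept probes (43154 of 56605) had to be well above background, by the software's call for 50% or more of their spots, in all 3 mice of some diet. Symbols came from RefSeq accessions and a GRCm38.p6 table for 34675 probes, and 21930 had none. A symbol's kept probe with the highest mean stood for the gene. With the unnamed probes this made 34401 features, called genes here, of which 19289 had a symbol.

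Limma 3.58.1 in R 4.3.3 was fitted over all 15 arrays with 1 coefficient per diet (10 residual degrees of freedom). Tests were two-sided, Benjamini-Hochberg adjustment covered all genes of a comparison, errors are SE unless named SD, and the script was tested on simulated data. The number of arrays limits the precision. Like-numbered arrays deviated together from their diet means for control and 20 ppm (r = 0.17 to 0.61) and for 500 and 2500 ppm (r = 0.29 to 0.47), but not for control and 5000 ppm (r = -0.20 to -0.11). Some unlike-numbered arrays did so as well, such as control mouse 3 and 20 ppm mouse 2 (r = 0.37). Another such pair was 500 ppm mouse 1 and 2500 ppm mouse 2 (r = 0.25). Other unlike-numbered arrays went opposite ways, such as control mouse 1 and 20 ppm mouse 2 (r = -0.45). The arrays therefore do not settle a pairing by number, and the labels state no batch. All 6 genes were named whatever they showed. From the lists of other genes, those past the threshold were named (up to 6), or else the 2 with the smallest p at 5000 ppm, and for each member the 3 most correlated genes. A few genes that this rule takes are not reported here. The members and lists were chosen with earlier results of these data known. The alternatives were another background correction, scaling, normalization, filter or probe rule, the deposited values, blocks for slide or replicate number, array weights, other dose scales and arrays left out.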

Additional observations from a re-analysis of the deposited data

How the results depend on the processing

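With 3 mice a diet and slide tied to dose, small changes of these genes cannot be resolved, and a p that misses the threshold does not show equal levels. Members past the threshold stayed at 0 in each comparison and alternative, except that 1 member (Ephx1) passed at 5000 ppm with array weights (0.88) and on the trend with array weights (0.21), without 500 ppm mouse 3 and 2500 ppm mouse 3 (0.24), without all 4 arrays apart (0.21) and without 2500 ppm mouse 3 alone, so that leaving out 1 array gave 0 to 1 members on the trend and 0 to 0 elsewhere. Ephx1 was higher than control at 5000 ppm in every alternative (0.76 to 1.05). With the replicate block no member passed (Ephx1 0.95, adjusted p = 0.333), and over all genes 13 passed at 5000 ppm, 44 on the trend, 1 at 2500 ppm and 1 for 5000 against 2500 ppm.

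For all genes, the count at 5000 ppm (14) became 9 with the median as the scale, 4940 with a fixed slide block (only 500 ppm mouse 3 links the slides), 5 with slide as a random block, 109 with array weights, 9 with only the groups compared, 33 without 500 ppm mouse 3 and 2500 ppm mouse 3, 6 without control mouse 1 and 20 ppm mouse 1, 4 without the 3 arrays of high adipocyte sums and 5 with the club cell sum as a covariate. At 2500 ppm (0) it became 1 with normexp, 5 with the median scale, 5046 with the fixed slide block, 955 with array weights, 3 with only the groups compared, 126 without the first pair of arrays apart and 274 without all 4. At 500 ppm (0) it was 4 with the median scale and 1 within slide 1, and at 20 ppm (0) it was 29 with array weights, 7 without the second pair and 15 without all 4. For 5000 against 2500 ppm (0) it was 1 with normexp, 646 with array weights, 11 without the first pair and 942 without all 4. The trend count (49) became 25 without a filter, 5485 with the fixed slide block, 5 with the random one, 749 with array weights, 127 without the first pair, 14 without the second, 122 without all 4, 7 without the arrays of high adipocyte sums and 30 with the club cell covariate. Leaving out 1 array each gave 5 to 20 genes at 5000 ppm, 0 to 46 at 2500 ppm, 0 to 1 at 500 ppm, 0 to 0 at 20 ppm, 0 to 9 for 5000 against 2500 ppm and 14 to 81 on the trend. The adipocyte and club cell fits were chosen after seeing the data.

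Signs turned for some differences, and the cause was not tested. Since no member had passed in the main fit, any turn had to fall on a difference that had not passed. With normexp Fmo1 was -0.0091 at 500 ppm and -0.0015 at 20 ppm, and Fmo5 -0.00033 at 20 ppm. With quantile normalization Fmo2 was -0.015 at 5000 ppm and -0.0045 on the trend, Fmo1 -0.0069 at 500 ppm and Fmo5 -0.0050 at 20 ppm. With the median scale Fmo1 was -0.21 and Fmo2 -0.14 at 500 ppm, and Fmo1 0.0015 for 5000 against 2500 ppm. With the mean of a gene's probes Fmo1 was 0.10 at 5000 ppm, 0.13 at 2500 ppm and 0.033 on the trend, and Fmo5 -0.27 at 2500 ppm and -0.028 on the trend. Fmo1 was 0.25, 0.27 and 0.073 at 5000 ppm, 2500 ppm and on the trend with the fixed slide block, 0.047, 0.066 and 0.012 with the random one, and 0.027 for 5000 against 2500 ppm with array weights. Without the first pair of arrays apart Fmo1 was 0.028 and Ephx2 -0.30 at 2500 ppm. Without the second pair Fmo5 was -0.026 at 2500 ppm and Fmo2 -0.010 at 20 ppm, and without all 4 Fmo1 was 0.018, Fmo5 -0.033 and Ephx2 -0.17 at 2500 ppm and Fmo2 -0.010 at 20 ppm. Without the arrays of high adipocyte sums Fmo1 was 0.029 at 5000 ppm, 0.028 at 2500 ppm, -0.013 at 500 ppm, 0.0017 for 5000 against 2500 ppm and 0.0042 on the trend, and Ephx2 -0.30 at 2500 ppm and -0.021 on the trend. With the club cell covariate Ephx2 was -0.15 at 2500 ppm and -0.038 on the trend. Leaving out 1 array each, Ephx1 ran from -0.083 to 0.20 and Fmo5 from -0.16 to 0.27 at 20 ppm, Fmo1 from -0.18 to 0.029 at 5000 ppm, -0.18 to 0.067 at 2500 ppm, -0.043 to 0.12 at 500 ppm and -0.15 to 0.14 for 5000 against 2500 ppm, Fmo5 from -0.026 to 0.25 at 2500 ppm, and Ephx2 from -0.30 to 0.78 at 2500 ppm and -0.14 to 0.94 for 5000 against 2500 ppm.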
